A study of Mus musculus with 11 samples.

Results

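The CD28-B7 family consists of co-signalling receptors of lymphocytes and their ligands, and 10 of its genes were taken by symbol from the 57186 gene entries of the count table. They were the 5 receptor genes Icos, Ctla4, Cd28, Pdcd1 and Btla and the 5 ligand genes Icosl, Cd80, Cd86, Cd274 and Pdcd1lg2. All 10 symbols were found, and the rule that picks them uses symbols and no measured value. Expression was measured by bulk RNA sequencing in 3 sorted populations from untreated mice aged 14 days, all of the genotype Cd3giCreRosa26stopZsGreen. In these mice a Cre recombinase under the control of Cd3g removes a stop sequence ahead of the green fluorescent protein ZsGreen at Rosa26, so the reporter marks a cell that expressed Cd3g or descends from one that did, and does not report Cd3g RNA at the time of sorting. The populations were DN3 cells, CD4 and CD8 double negative T cell precursors of the thymus (3 libraries), and ZsGreen-positive (3 libraries) and ZsGreen-negative (5 libraries) group 2 innate lymphoid cells (ILC2) of the lung. No reporter status is given in the labels for DN3. The comparisons set the ILC2 with the reporter against those without it, and DN3 cells against each kind of ILC2.

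CD28 gives T cells the second signal they need beside the antigen receptor when it binds CD80 or CD86 on another cell. CTLA4 binds the same ligands more tightly and restrains the response, and ICOS, which binds ICOS ligand, recruits phosphoinositide 3-kinase (PI3K). PD-1, encoded by Pdcd1, and BTLA carry inhibitory tyrosine motifs; the ligands of PD-1 are PD-L1 and PD-L2, encoded by Cd274 and Pdcd1lg2. ILC2 are known to express both ICOS and its ligand, and that pair supports their survival and cytokine output.

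The 3 receptors of the CD28 branch are encoded by neighbouring genes on chromosome 1, in the order Cd28, Ctla4, Icos. The stretches below are shown because the receptors differ in them in ligand binding and in signalling. They are coding bases from the GENCODE M21 annotation of build GRCm38, plus strand. The capitals in the first set are the 6 codons of the loop that touches the B7 ligand, in exon 2 of 4 of each gene, at chr1:60993968-60994015 for Icos, chr1:60912698-60912745 for Ctla4 and chr1:60763260-60763307 for Cd28.
Icos loop: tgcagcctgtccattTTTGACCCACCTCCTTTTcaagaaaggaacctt
Ctla4 loop: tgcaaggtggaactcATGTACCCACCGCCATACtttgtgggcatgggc
Cd28 loop: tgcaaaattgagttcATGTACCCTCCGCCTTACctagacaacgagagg
Of the 18 bases in capitals, Ctla4 and Cd28, which share ligands, differed at 2, and Icos differed from each of them at 7. The capitals in the second set are the 4 codons of the PI3K-binding motif of the cytoplasmic tail, in exon 4, at chr1:60995545-60995586 for Icos, chr1:60914631-60914672 for Ctla4 and chr1:60769678-60769719 for Cd28.
Icos tail: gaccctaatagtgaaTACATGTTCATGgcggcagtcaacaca
Ctla4 tail: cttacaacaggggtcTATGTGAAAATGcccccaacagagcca
Cd28 tail: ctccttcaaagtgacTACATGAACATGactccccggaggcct
Of these 12 bases, Icos and Cd28 differed at 2, Ctla4 and Cd28 at 3, and Icos and Ctla4 at 5.

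Total counts were 5951494 to 7745062 in DN3, 5762491 to 17627469 in ZsGreen-positive and 4495260 to 14424313 in ZsGreen-negative libraries, so that 1 count stood for 0.0567 to 0.222 CPM in counts relative to the plain library total. The labels date the batches: all DN3 libraries form a batch of their own (October 2024), ZsGreen-positive libraries 1 and 2 and ZsGreen-negative libraries 1 to 4 share another (September 2024), and ZsGreen-positive library 3 and ZsGreen-negative library 5 a last one (April 2025). Wherever DN3 are compared with lung cells, tissue and batch cannot be told apart. The labels fitted the markers: Rag1 averaged 1265 CPM in DN3 against 0.158 in ZsGreen-positive and 0.232 in ZsGreen-negative ILC2, whereas Il1rl1, the IL-33 receptor of ILC2, had 0 counts in DN3 and averaged 2985 CPM in ZsGreen-positive and 3169 CPM in ZsGreen-negative ILC2. RNA of other lung cells was present. Lung structural markers (22 genes) summed to 192 to 227 CPM in DN3, 1023 to 2596 in ZsGreen-positive and 406 to 1154 in ZsGreen-negative libraries. The DN3 sum came mostly from Pecam1, Pdgfrb and Epcam (100, 62.5 and 35.9 CPM), each higher in DN3 than in either lung group. Of 21 tested, 17 were lower in DN3 than in ZsGreen-negative ILC2, among them Sftpc, at 0.130 against 230 CPM. Over all genes tested, 41.2% were lower and 35.5% higher in DN3 in that comparison. Macrophage and dendritic cell markers (20 genes) summed to 18.9 to 20.3 CPM in DN3. That sum was 126 to 272 CPM in ZsGreen-positive and 67.4 to 182 in ZsGreen-negative libraries. In the lung groups Lyz2 was its largest part, at a mean of 154 CPM in ZsGreen-positive and 68.9 CPM in ZsGreen-negative ILC2. Adgre1 (1.59 and 2.29 CPM), Zbtb46 (8.07 and 10.8), Xcr1 (0.998 and 1.13) and C1qc (0.241 and 0.281) averaged lower in ZsGreen-positive ILC2, and the other listed markers higher. Of 10 tested between the lung groups, 0 passed the test, beside 4.52% of all genes. None of those 42 markers was at 0 in either lung group, and their part in the differences from DN3 was not tested.

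In ZsGreen-positive compared with ZsGreen-negative ILC2, Icos was lower and Ctla4 was slightly higher, and 6 other members did not pass the test. Differences were tested with edgeR's quasi-likelihood test with batch as a term over 13771 genes, and a Benjamini-Hochberg (BH) adjusted p under 0.05 counted as a call. Levels are CPM after TMM scaling over the 11 libraries, given as mean ± SD. Of all genes tested, 4.52% were called, 2.35% higher and 2.18% lower, and the groups did not overlap for 10.2%. Among the members 8 were tested, of which 1 was called higher, 1 lower and 3 had groups that did not overlap. Their median log2 fold change was 0.11, against 0 over all genes. Cd80 and Cd86 were too low to be tested.

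Icos, the inducible co-stimulator, measured 462, 444 and 392 CPM in the ZsGreen-positive libraries. In the ZsGreen-negative libraries it measured 777, 695, 1009, 944 and 812 CPM. Every ZsGreen-positive library lay below every ZsGreen-negative one, in both batches that hold lung libraries, and the ZsGreen-negative libraries spread more widely. The means were 432 ± 36.4 CPM (n = 3) in ZsGreen-positive and 847 ± 127 CPM (n = 5) in ZsGreen-negative ILC2, a mean level 1.96-fold higher in ZsGreen-negative cells. The log2 fold change was -0.95 ± 0.12 (SE; edgeR BH-adjusted p = 8.35e-05). In bulk RNA, fewer Icos-expressing cells and less Icos RNA per cell cannot be told apart. Of 21 structural markers tested, 3 were higher in ZsGreen-positive ILC2 (Cldn18, Cldn5 and Pdgfrb) and 0 lower, with a median log2 fold change of 1.19. With the mean level of the structural markers as a term in the fit the Icos difference was -0.98 ± 0.17 (edgeR BH-adjusted p = 0.00764). That mean, in log2(CPM + 1), was 3.97, 4.22 and 4.81 in ZsGreen-positive and 2.82 to 4.12 in ZsGreen-negative libraries. The term thus runs partly with the group, so where a call below is lost with it, the 2 cannot be fully told apart. Within the September 2024 batch alone the Icos difference was -0.92 ± 0.14 (edgeR BH-adjusted p = 0.000815). Whether RNA of other cells lowers the Icos level in ZsGreen-positive libraries was not tested.

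Ctla4, the inhibitory competitor of Cd28, measured 39.3, 40.3 and 35.3 CPM in the ZsGreen-positive libraries. In the ZsGreen-negative libraries it measured 32.4, 31.3, 32.9, 32.8 and 20.7 CPM. The groups did not overlap, and the lowest library of each group was the one from April 2025. The means were 38.3 ± 2.66 CPM in ZsGreen-positive (n = 3) and 30.02 ± 5.27 CPM in ZsGreen-negative ILC2 (n = 5), with a log2 fold change of 0.44 ± 0.11 (SE; edgeR BH-adjusted p = 0.0298). The call was lost in 11 of 19 alternatives, over which the difference stayed between 0.25 and 0.51 log2 units. It was 0.30 within the September 2024 batch (edgeR BH-adjusted p = 0.305) and 0.28 with the structural markers as a term (edgeR BH-adjusted p = 0.868). Among the fits that left out a single library it ended (edgeR BH-adjusted p in parentheses) for ZsGreen-positive libraries 1 (0.0513), 2 (0.0789) and 3 (0.315) and ZsGreen-negative libraries 1 (0.0574) and 5 (0.285).

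Other cell types that can carry Ctla4 RNA were read beside it. The summed level of 12 mature T cell markers was 537 to 660 CPM in ZsGreen-positive and 433 to 476 CPM in ZsGreen-negative libraries. Of 9 tested, 3 were higher, Cd3g, Cd3e and Cd3d, all of the CD3 complex, whose gamma chain gene drives the Cre of the reporter. Cd3g had the largest mean difference of the list, at 152 CPM in ZsGreen-positive and 35.3 CPM in ZsGreen-negative ILC2. In the same order, Trbc1 (172 and 203 CPM), Cd5 (1.49 and 2.07) and Cd6 (6.24 and 7.05) averaged lower in ZsGreen-positive ILC2. The other listed markers averaged higher there. Foxp3, the factor of regulatory T cells, averaged 2.64 ± 0.790 and 1.67 ± 0.747 CPM in ZsGreen-positive and ZsGreen-negative ILC2 and was not called (edgeR BH-adjusted p = 0.544). Cd4 averaged 0.541 ± 0.644 CPM in ZsGreen-positive and 0.191 ± 0.198 CPM in ZsGreen-negative ILC2. The part of these cells in the Ctla4 difference was not tested.

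Because both genes were read in the same library, their ratio does not depend on how libraries were scaled. It is built from the counts behind the Icos and Ctla4 differences above (log2 fold changes -0.95 and 0.44) and is not a separate result. The log2 ratio of Ctla4 to Icos counts was -3.55, -3.46 and -3.47 in the ZsGreen-positive libraries and -4.58, -4.47, -4.93, -4.84 and -5.29 in the ZsGreen-negative libraries. The groups did not overlap, with means of -3.49 ± 0.05 in ZsGreen-positive and -4.82 ± 0.32 in ZsGreen-negative ILC2 (SD). The ratio of Cd28 to Icos counts did overlap, at -6.36 ± 0.08 in ZsGreen-positive and -6.83 ± 0.31 in ZsGreen-negative ILC2 on the same scale. In DN3 both ratios were of the opposite sign, at 4.39 ± 0.30 for Ctla4 to Icos and 4.76 ± 0.20 for Cd28 to Icos.

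**Figure D1:**
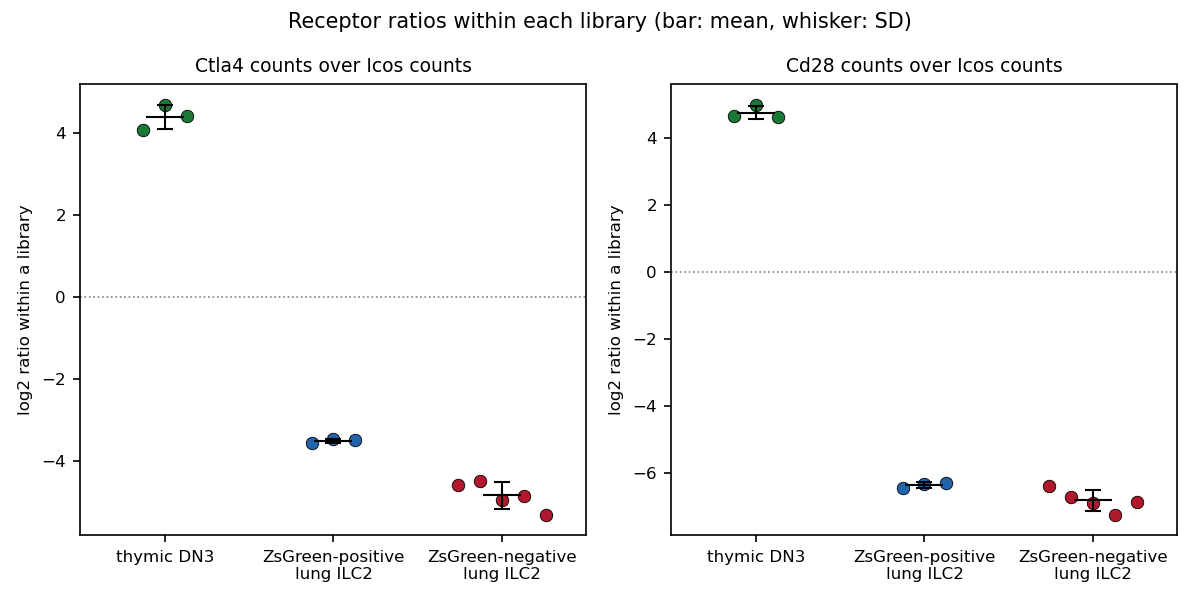
Log2 ratio of Ctla4 to Icos counts and of Cd28 to Icos counts in each of the 11 libraries (0.5 counts added to each), with group means and SD. DN3 libraries lie above 0 and ILC2 libraries below it in both ratios, and only the Ctla4 to Icos ratio separates ZsGreen-positive (mean -3.49) from ZsGreen-negative ILC2 (mean -4.82).

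The remaining receptors gave no call between the lung groups. Cd28 measured 5.22, 5.36 and 4.95 CPM in ZsGreen-positive libraries and 9.14, 6.44, 8.28, 6.13 and 6.94 CPM in ZsGreen-negative libraries. Its groups did not overlap, and with 29 to 94 counts a library the log2 fold change of -0.49 ± 0.23 did not pass (edgeR BH-adjusted p = 0.276). Pdcd1, the gene of PD-1, averaged 267 ± 37.6 CPM in ZsGreen-positive and 242 ± 30.8 CPM in ZsGreen-negative ILC2 (log2 fold change 0.19 ± 0.08; edgeR BH-adjusted p = 0.233). Btla averaged 13.8 ± 1.64 and 14.4 ± 0.716 CPM in ZsGreen-positive and ZsGreen-negative ILC2 (edgeR BH-adjusted p = 0.889), with overlapping libraries.

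No ligand gene was called between the lung groups. Of the 3 ligand genes tested, 0 reached an unadjusted p under 0.05 with edgeR, and DESeq2 and limma voom called 0 as well. Icosl, the gene of ICOS ligand, measured 276, 268 and 268 CPM in ZsGreen-positive libraries and 274, 251, 257, 236 and 241 CPM in ZsGreen-negative libraries. Those ranges overlapped, and the log2 fold change was 0.12 ± 0.08 (SE; edgeR BH-adjusted p = 0.534), beside the Icos difference of -0.95. Cd274 averaged 60.8 ± 7.39 CPM in ZsGreen-positive and 52.2 ± 11.7 CPM in ZsGreen-negative ILC2 (edgeR BH-adjusted p = 0.391). Its exons overlap those of the antisense gene AC119228.1 by 511 bases in the GENCODE M21 annotation, and whether counting used the strand is not given in the sources used here, so its level is uncertain. Pdcd1lg2 averaged 29.8 ± 6.38 and 28.2 ± 2.66 CPM in ZsGreen-positive and ZsGreen-negative ILC2 (edgeR BH-adjusted p = 0.776).

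Cd80 and Cd86, the ligands that CD28 and CTLA4 share, were near the detection limit in every group. Cd80 had 4, 4 and 8 counts in DN3, 4, 14 and 11 in ZsGreen-positive and 7, 1, 2, 9 and 4 in ZsGreen-negative libraries, or 0.643 ± 0.262, 1.27 ± 1.14 and 0.732 ± 0.583 CPM in those groups. Cd86 had 2, 0 and 0 counts in DN3, 4, 10 and 34 in ZsGreen-positive and 4, 4, 1, 1 and 9 in ZsGreen-negative libraries. All 3 groups overlapped for Cd80. For Cd86 the lung groups overlapped, and the level in ZsGreen-positive over that in DN3 had a ratio of 18.1 (95% counting interval 4.73 to 153, from 48 against 2 counts), while that in ZsGreen-negative over DN3 had a ratio of 5.92 (1.43 to 52.4, from 19 against 2). These intervals cover counting error only. Both genes are known from antigen-presenting cells, whose markers were measurable in the lung: the 7 MHC class II genes summed to 28.7 to 31.2 CPM in DN3, 88.7 to 258 in ZsGreen-positive and 64.2 to 94.3 in ZsGreen-negative libraries. Of these 7, H2-DMa was higher in DN3, at 19.3 CPM against 5.41 in ZsGreen-positive and 4.83 in ZsGreen-negative ILC2. Against the same groups, 5 and 4 were lower in DN3. Among the 20 macrophage and dendritic cell markers, Fcgr1, Marco, Batf3, C1qc, Clec9a, Cd14 and Xcr1 had 0 counts in DN3. Cd68 went the other way, at 9.70 CPM in DN3 against 6.91 in ZsGreen-positive and 5.00 in ZsGreen-negative ILC2. Of 10 tested, 8 were lower in DN3 against either lung group, and 1 was higher, against ZsGreen-negative ILC2. Over all genes tested, 40.3% were lower and 34.8% higher in DN3 against ZsGreen-positive ILC2. Against ZsGreen-negative ILC2 the shares were 41.2% and 35.5%. These shares stand beside the MHC class II counts as well. The part of antigen-presenting cells in the Cd86 counts was not tested.

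**Figure D2:**
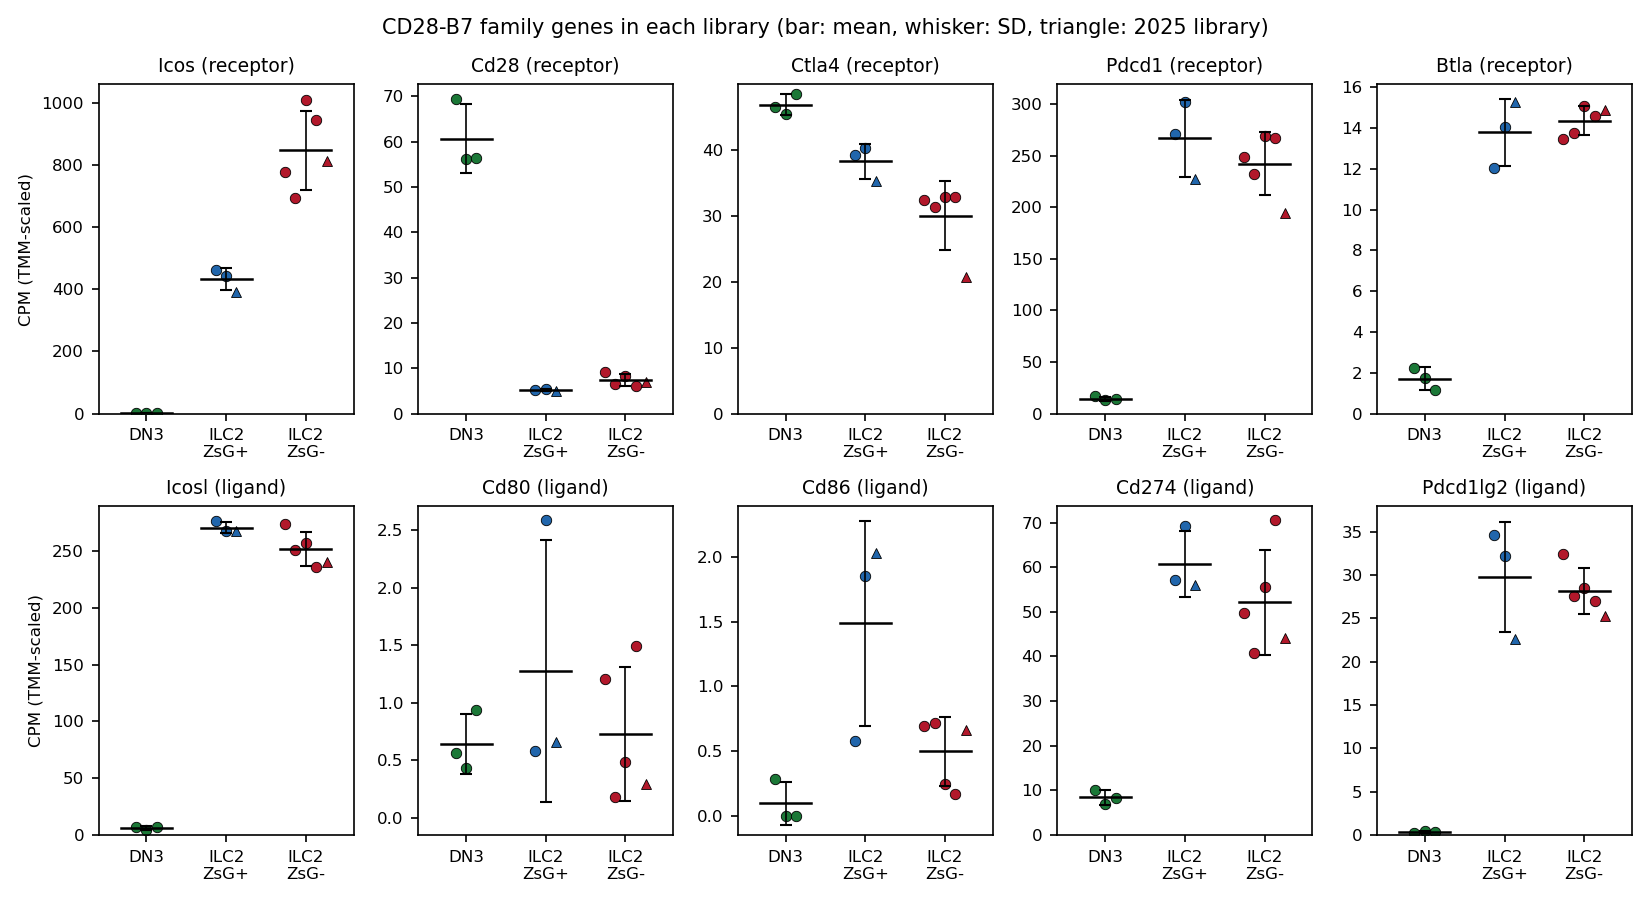
Level of each of the 10 members in every library, as TMM-scaled CPM on a linear axis of its own for each gene, with the mean and SD of each group and the April 2025 libraries as triangles, for DN3 (n = 3), ZsGreen-positive (n = 3) and ZsGreen-negative ILC2 (n = 5). Icos separates all 3 groups, with means of 2.21 CPM in DN3, 432 in ZsGreen-positive and 847 in ZsGreen-negative ILC2, and no library exceeds 2.59 CPM for Cd80 or 2.03 CPM for Cd86.

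DN3 cells carried Cd28 and Ctla4 RNA, little Pdcd1 and very little Icos or ligand RNA, whereas ILC2 carried high Icos, Pdcd1 and Icosl. The 2 DN3 comparisons share the DN3 libraries and were made in a single fit of 11 libraries over 15132 genes, and each also shares its ILC2 libraries with the lung comparison. Most genes differed here: 76.7% of all genes were called between DN3 and ZsGreen-negative ILC2 (35.5% higher and 41.2% lower in DN3) and 75.1% between DN3 and ZsGreen-positive ILC2 (34.8% and 40.3%), so that a call alone says little about a member and the sizes are given. The groups did not overlap for 73.9% of genes against ZsGreen-negative and 78.2% against ZsGreen-positive ILC2, and for all 8 tested members in both. Against ZsGreen-negative ILC2, 2 of 8 tested members were higher in DN3 and 6 lower, with a median log2 fold change of -3.57 against -0.10 over all genes. Against ZsGreen-positive ILC2, 1 was higher, 6 lower and 1 not called, with a median of -3.61 against -0.08.

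Icos showed the largest fold difference among the 8 tested members. It measured 2.68, 1.72 and 2.22 CPM in DN3, from 16 to 19 counts a library, and at least 392 CPM in every ILC2 library. The log2 fold change was -8.60 ± 0.19 against ZsGreen-negative (SE; edgeR BH-adjusted p = 3.63e-20) and -7.63 ± 0.19 against ZsGreen-positive ILC2 (edgeR BH-adjusted p = 3.47e-19). In mean levels, ZsGreen-positive ILC2 held 196-fold and ZsGreen-negative ILC2 384-fold more Icos RNA per total than DN3.

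Cd28 showed the reverse. It measured 69.4, 56.1 and 56.5 CPM in DN3, against at most 9.14 CPM in any ILC2 library. The mean of 60.6 ± 7.55 CPM in DN3 was 11.7-fold that in ZsGreen-positive ILC2 (5.18 ± 0.207 CPM; log2 fold change 3.56 ± 0.16; edgeR BH-adjusted p = 1.09e-14). It was 8.21-fold that in ZsGreen-negative ILC2 (7.39 ± 1.28 CPM; log2 fold change 3.05 ± 0.13; edgeR BH-adjusted p = 4.12e-15).

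Ctla4, which lies between those genes on the chromosome, varied least of the 8 tested members across the 3 populations. DN3 libraries measured 46.5, 45.4 and 48.5 CPM, above every ILC2 library, and the mean was 46.8 ± 1.59 CPM. The log2 fold change was 0.66 ± 0.13 against ZsGreen-negative ILC2 (SE; edgeR BH-adjusted p = 7.76e-05), a call that held in 18 of 18 alternatives. Against ZsGreen-positive ILC2 it was 0.30 ± 0.14 and not called (edgeR BH-adjusted p = 0.0625). In 6 of 18 alternatives the DN3 to ZsGreen-positive difference passed, with adjusted p between 0.0148 and 0.138 over all of them, and without ZsGreen-negative library 5 it was 0.0148.

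Pdcd1 and Btla, the inhibitory receptors with tyrosine motifs, were lower in DN3. Pdcd1 measured 16.5, 12.7 and 14.4 CPM in DN3, 271, 302 and 227 in ZsGreen-positive and 249, 232, 269, 267 and 194 in ZsGreen-negative libraries. DN3 lay below all ILC2 libraries, with log2 fold changes of -4.20 ± 0.15 against ZsGreen-positive (SE; edgeR BH-adjusted p = 2.52e-16) and -4.06 ± 0.14 against ZsGreen-negative ILC2 (edgeR BH-adjusted p = 1.82e-16). Btla measured 2.26, 1.72 and 1.17 CPM in DN3, 12.03, 14.05 and 15.3 in ZsGreen-positive and 13.5, 13.8, 15.1, 14.6 and 14.9 in ZsGreen-negative libraries. It was 8.04-fold higher in the mean of ZsGreen-positive and 8.38-fold higher in that of ZsGreen-negative ILC2 than in DN3 (edgeR BH-adjusted p = 6.91e-11 and 1.86e-11).

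The 3 ligands that could be tested were all lower in DN3. Icosl measured 6.91, 4.09 and 7.01 CPM in DN3, with log2 fold changes of -5.51 ± 0.14 against ZsGreen-positive (SE; edgeR BH-adjusted p = 3.5e-19) and -5.41 ± 0.14 against ZsGreen-negative ILC2 (edgeR BH-adjusted p = 2.13e-19). Pdcd1lg2, the gene of PD-L2, had 2, 4 and 3 counts in DN3, or 0.354 ± 0.0741 CPM, and its mean was 84.1-fold higher in ZsGreen-positive and 79.5-fold higher in ZsGreen-negative ILC2 (edgeR BH-adjusted p = 5.48e-15 and 3.06e-15). Its neighbour on chromosome 19, Cd274, measured 10.2, 6.88 and 8.30 CPM in DN3. It measured 57.2, 69.3 and 55.9 CPM in ZsGreen-positive and 49.9, 40.8, 55.6, 70.5 and 44.05 CPM in ZsGreen-negative libraries, or 7.20-fold and 6.18-fold more than DN3 in the means (edgeR BH-adjusted p = 1.35e-10 and 1.82e-10). No ILC2 library reached down to a DN3 library for any of these 3 genes.

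**Figure D3:**
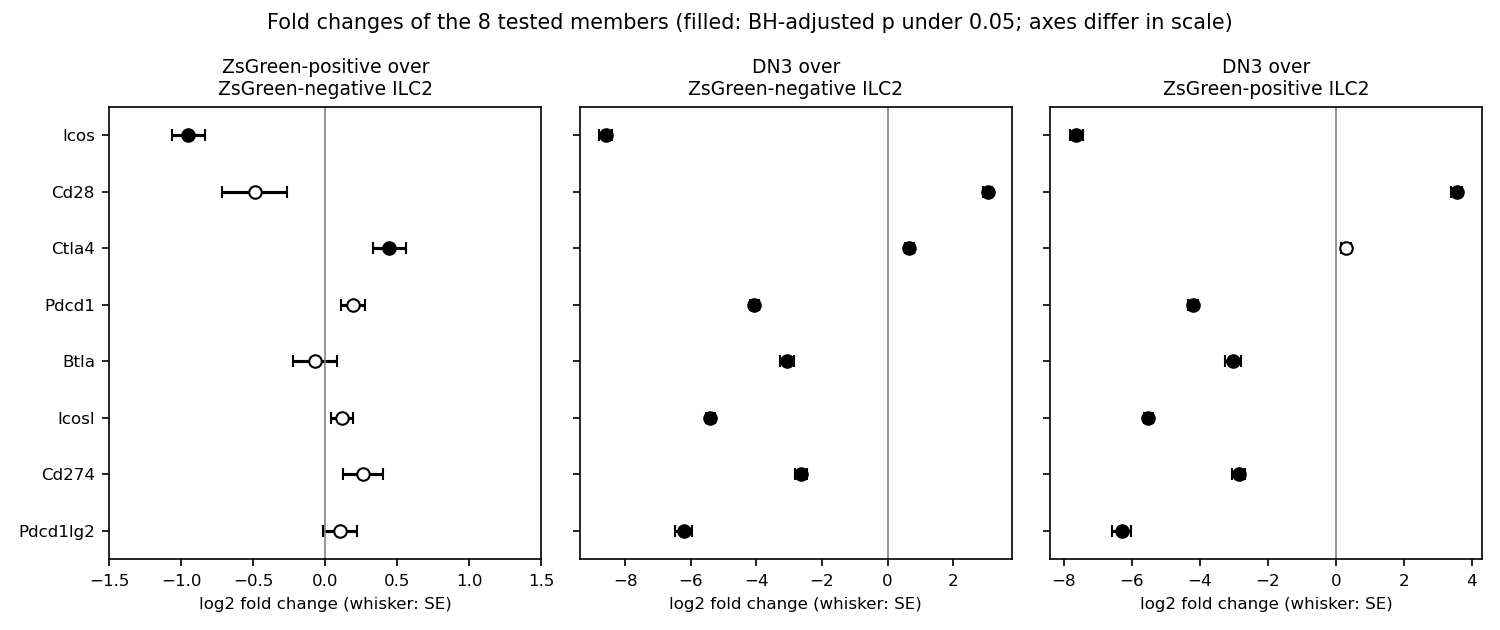
Log2 fold change with SE of the 8 tested members, in panels for ZsGreen-positive against ZsGreen-negative ILC2, DN3 against ZsGreen-negative and DN3 against ZsGreen-positive ILC2, with called genes filled and axes of different scale. Icos has the lowest value in each panel (-0.95, -8.60 and -7.63), and Cd28 and Ctla4 are the members on the positive side in both DN3 comparisons.

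The order of the members within a population was read per kilobase of exon (CPM divided by the summed length of all annotated exons, GENCODE M21). In DN3 it ran Ctla4 (20.1), Cd28 (9.91), Pdcd1 (7.52) and Cd274 (2.33 CPM per kb). In ZsGreen-positive ILC2 it ran Pdcd1 (138), Icos (126), Icosl (58.6) and Cd274 (16.8), and in ZsGreen-negative ILC2 Icos (247), Pdcd1 (125), Icosl (54.5) and Cd274 (14.4). By this measure Icos and Pdcd1 stood in a different order in the lung groups, in every library. In CPM, Icos exceeded Pdcd1 in every library of both groups, with ZsGreen-positive means of 432 and 267 CPM. The order in ZsGreen-positive ILC2 thus depended on the exon lengths, 3.43 kb for Icos and 1.93 kb for Pdcd1. Icos measured 135, 129 and 114 CPM per kb beside 140.2, 156 and 118 for Pdcd1 in ZsGreen-positive libraries, a close order in libraries 1 and 3. In ZsGreen-negative libraries it measured 227, 202, 294, 275 and 237 beside 129, 120.4, 139.5, 138 and 100.5 for Pdcd1. The Cd28 exons include those of non-coding transcripts, which lowers its value per kb.

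The promoters of Ctla4 and Pdcd1 are shown because these receptor genes of chromosome 1 moved in opposite directions between DN3 and ZsGreen-negative ILC2. Each window runs from 250 bases before to 50 after the RefSeq start in build GRCm38.p6, at chr1:60908775-60909074 on the plus strand for Ctla4 and chr1:94052504-94052803 on the minus strand for Pdcd1. Capitals mark the core letters GGAAA of NFAT sites, searched on both strands (TTTCC on the other), and TATAAA, the TATA box, likewise on both strands (TTTATA).
Ctla4: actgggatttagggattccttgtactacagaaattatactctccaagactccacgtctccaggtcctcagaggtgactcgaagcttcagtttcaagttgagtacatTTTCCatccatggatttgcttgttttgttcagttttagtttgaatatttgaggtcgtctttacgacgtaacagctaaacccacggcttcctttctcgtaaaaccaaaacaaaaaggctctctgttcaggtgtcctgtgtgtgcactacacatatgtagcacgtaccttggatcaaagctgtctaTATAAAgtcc
Pdcd1: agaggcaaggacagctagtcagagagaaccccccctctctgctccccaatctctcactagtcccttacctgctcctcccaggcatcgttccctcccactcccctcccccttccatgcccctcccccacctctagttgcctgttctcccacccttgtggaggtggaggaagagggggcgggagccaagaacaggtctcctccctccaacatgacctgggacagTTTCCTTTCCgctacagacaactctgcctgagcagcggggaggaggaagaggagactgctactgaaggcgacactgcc
The Ctla4 window held the NFAT core once, at base 107, and TATAAA at base 291, which is past the annotated start. The Pdcd1 window held the NFAT core at bases 223 and 228 and no TATAAA. The NFAT core stood in 61.3% and TATAAA in 13.6% of 32851 promoter windows of 300 bases, so the matches are descriptions and not sites. The table held 7 of the 10 members, without Icos, Cd28 and Cd86.

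Genes around the family were read from lists of known partners. Their counts stand beside 4.52% of all genes called between the lung groups. In DN3, 76.7% of all genes were called against ZsGreen-negative and 75.1% against ZsGreen-positive ILC2. Among other B7 proteins and BTLA partners, 5 of 6 were tested, and between the lung groups 0 were higher and 1 lower. That gene was Cd276, the B7-H3 gene, at 6.32 ± 2.27 CPM in ZsGreen-positive and 19.5 ± 2.95 CPM in ZsGreen-negative ILC2 (log2 fold change -1.60 ± 0.21; edgeR BH-adjusted p = 0.000179), a call that held in 19 of 19 alternatives. In DN3 1 gene of the list was higher and 3 were lower against either lung group. Tnfsf14, the gene of the cytokine LIGHT, which shares its receptor with BTLA, averaged 3.01 CPM in DN3, 223 in ZsGreen-positive and 214 in ZsGreen-negative ILC2, and Cd276 averaged 0.362 CPM in DN3. Cd160, another partner of that receptor, was the gene higher in DN3, at 4.29 CPM against 1.12 in ZsGreen-positive and 1.40 in ZsGreen-negative ILC2. The shared receptor itself, Tnfrsf14, was not called in any comparison, at 25.6 ± 2.29, 26.6 ± 2.14 and 25.5 ± 4.11 CPM in DN3, ZsGreen-positive and ZsGreen-negative cells.

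Of 10 other co-inhibitory and co-stimulatory receptors, 7 were tested between the lung groups, with 2 higher and 0 lower in ZsGreen-positive ILC2. Havcr2, the TIM-3 gene, averaged 10.95 ± 2.46 CPM in ZsGreen-positive and 6.65 ± 1.19 CPM in ZsGreen-negative ILC2 (edgeR BH-adjusted p = 0.0347). Cd2, an adhesion receptor of T cells, averaged 6.06 ± 1.45 and 2.96 ± 0.586 CPM in ZsGreen-positive and ZsGreen-negative ILC2 (edgeR BH-adjusted p = 0.0367). Both calls were fragile, lost in 13 and 10 of 19 alternatives, with adjusted p of 0.294 and 0.856 once the structural markers were a term. Havcr2 lost its call without any single library except ZsGreen-negative library 4, and Cd2 without ZsGreen-negative library 2, 4 or 5 or any ZsGreen-positive library. In DN3, 3 of 10 were higher and 5 lower against ZsGreen-negative ILC2, and 3 were higher and 6 lower against ZsGreen-positive ILC2. Those counts stand beside 76.7% and 75.1% of all genes called. The homophilic receptor gene Slamf6 stood at 118 CPM in DN3 against 0.996 in ZsGreen-positive and 0.388 in ZsGreen-negative ILC2, whereas the inhibitory receptor gene Cd200r1 stood at 0.114 CPM in DN3 against 207 and 205 CPM in ZsGreen-positive and ZsGreen-negative ILC2.

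Downstream of ICOS and CD28, none of 30 genes of the PI3K and kinase arm was called between the lung groups by edgeR, DESeq2 or limma voom, although 6 had an unadjusted p under 0.05 with edgeR, and their median log2 fold change was 0.02. In DN3, 7 were higher and 17 lower against ZsGreen-negative ILC2, and 5 were higher and 15 lower against ZsGreen-positive ILC2. Over all genes 35.5% were higher and 41.2% lower in the first comparison, and 34.8% and 40.3% in the second. Lck, the kinase that starts T cell receptor signalling, averaged 896 CPM in DN3 against 58.8 in ZsGreen-positive and 45.8 in ZsGreen-negative ILC2. Inpp4b and Inpp5d, phosphatases that break down PI3K products, averaged 12.5 and 55.4 CPM in DN3, against 765 and 381 CPM in ZsGreen-positive and 774 and 383 CPM in ZsGreen-negative ILC2.

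In the inhibitory arm used by CTLA4, PD-1 and BTLA, 12 of 13 genes were tested between the lung groups and edgeR called 0, with 2 at an unadjusted p under 0.05, while DESeq2 and limma voom called 1 each. In DN3, 5 of 13 were higher and 6 lower against either lung group, beside 76.7% (ZsGreen-negative) and 75.1% (ZsGreen-positive) of all genes called. Ptpn6, the gene of the phosphatase SHP-1, averaged 139 CPM in DN3 against 58.8 in ZsGreen-positive and 57.3 in ZsGreen-negative ILC2. Sh2d1a, the gene of the adaptor SAP, averaged 50.4 CPM in DN3 against 0.108 and 0.0635 CPM in ZsGreen-positive and ZsGreen-negative ILC2. Ptpn22, a phosphatase of Src family kinases, averaged 53.1 CPM in DN3 against 247 and 200 CPM in ZsGreen-positive and ZsGreen-negative ILC2.

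CTLA4 protein is largely held inside the cell and recycled, and genes of its trafficking were read with it. The list also held Cmtm6, which acts on PD-L1, and its relative Cmtm4, both lower in DN3 against either lung group. Between the lung groups 1 of 10 tested was higher and 0 lower: Pld1, a phospholipase, at 7.77 ± 2.25 CPM in ZsGreen-positive and 4.14 ± 0.682 CPM in ZsGreen-negative ILC2 (edgeR BH-adjusted p = 0.0383). That call was lost in 9 of 19 alternatives, among them those without ZsGreen-negative library 1, 2, 4 or 5 or ZsGreen-positive library 1 or 3, and its adjusted p reached 0.868 with the structural markers as a term. In DN3, 2 of 11 were higher and 8 lower against ZsGreen-negative ILC2, and 2 were higher and 9 lower against ZsGreen-positive ILC2. The shares called over all genes were 76.7% and 75.1%. Trat1, the gene of the adaptor TRIM, which carries CTLA4 to the surface, averaged 106 CPM in DN3 against 0.218 in ZsGreen-positive and 0.562 in ZsGreen-negative ILC2. Cmtm6, whose product keeps PD-L1 at the cell surface, averaged 56.7 CPM in DN3 against 232 and 254 CPM in ZsGreen-positive and ZsGreen-negative ILC2.

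Icos messenger RNA is a known target of the Roquin proteins and the ribonuclease Regnase-1. Of 7 decay factor genes tested between the lung groups, 0 were higher and 1 was lower. That gene was Zfp36, whose product binds AU-rich elements, at 844 ± 188 CPM in ZsGreen-positive and 1152 ± 224 CPM in ZsGreen-negative ILC2 (log2 fold change -0.52 ± 0.09; edgeR BH-adjusted p = 0.00136). It was lost in 4 of 19 alternatives, with an adjusted p of 0.26 when the structural markers were a term and 0.148 with no batch term. In DN3, 0 were higher and 6 of 7 lower against either lung group, with Zfp36 at 6.62 CPM and Zc3h12a, the Regnase-1 gene, at 20.9 CPM in DN3 against 232 in ZsGreen-positive and 252 in ZsGreen-negative ILC2. Of all genes, 41.2% were lower in DN3 against ZsGreen-negative and 40.3% against ZsGreen-positive ILC2. The part of these decay factors in the Icos differences was not tested.

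Of 18 tested transcription factors tied to the members in T cells, 1 was higher and 0 lower in ZsGreen-positive ILC2. Nfatc2, the gene of a calcium-activated factor, averaged 124 ± 2.32 CPM in ZsGreen-positive and 94.6 ± 10.96 CPM in ZsGreen-negative ILC2 (log2 fold change 0.38 ± 0.09; edgeR BH-adjusted p = 0.0208). It was not called in 4 of 19 alternatives, which include those without ZsGreen-positive library 1 (0.0969) or 2 (0.0987) and the fit with the structural markers as a term (0.559). In DN3, 2 were higher and 13 lower against either lung group, beside 76.7% (ZsGreen-negative) and 75.1% (ZsGreen-positive) of all genes called. Tcf7, the gene of the T lineage factor TCF-1, averaged 1880 CPM in DN3 against 42.5 in ZsGreen-positive and 33.2 in ZsGreen-negative ILC2. Nr4a1, a gene induced within hours of stimulation, averaged 15.6 CPM in DN3 against 5540 and 6388 CPM in ZsGreen-positive and ZsGreen-negative ILC2, and Maf averaged 4.34 CPM in DN3 against 242 in ZsGreen-positive and 264 in ZsGreen-negative ILC2.

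**Figure D4:**
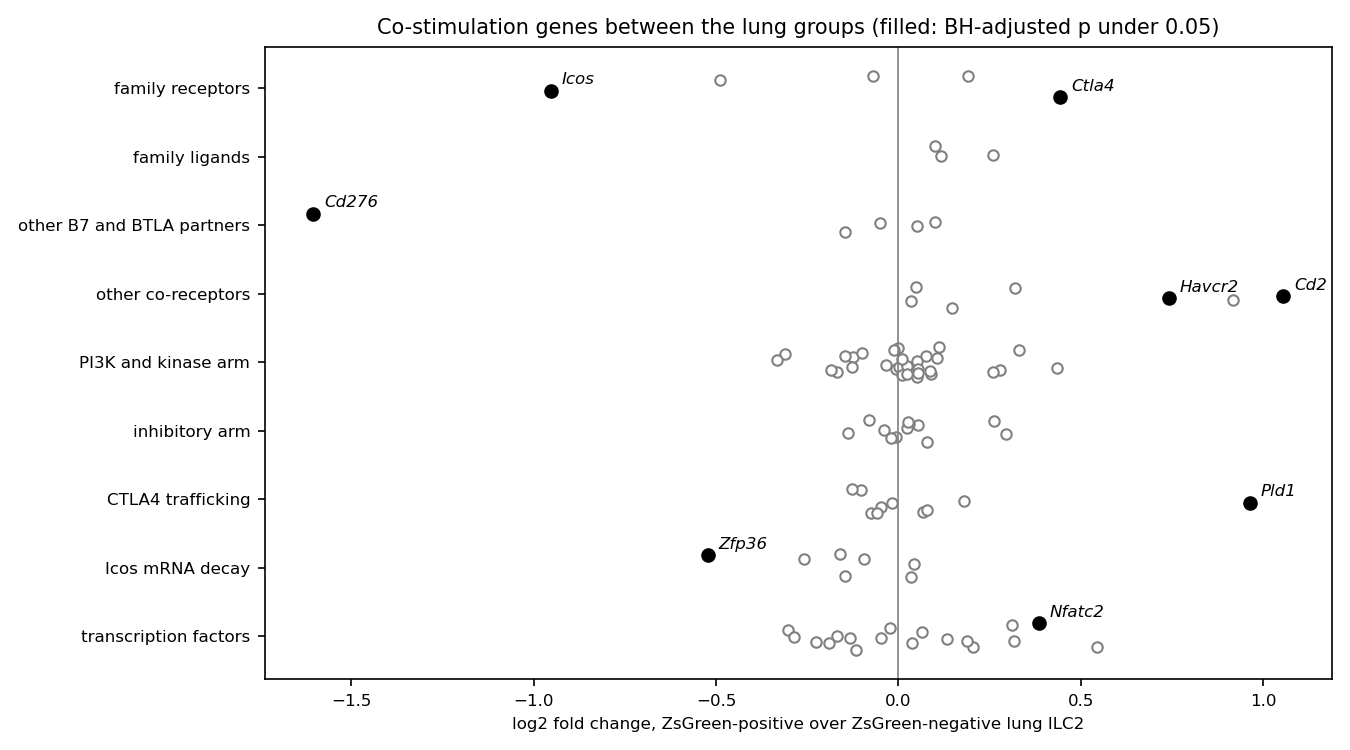
Log2 fold change of each tested gene of the family and of the lists around it, in ZsGreen-positive against ZsGreen-negative ILC2, by list down the page, with called genes filled and named and genes without a call open. Cd276 is the lowest at -1.60 and Icos the next at -0.95, and the PI3K and inhibitory arms hold no filled point.

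The genes whose profiles lay closest to those of the CD28 branch were found by the root mean square difference of centred log2(CPM + 1) over the 11 libraries, among 9504 genes. For Icos they were Thsd4 (0.264), Sdc4 (0.290), Jag1 (0.296), Frmd4b (0.325) and Atf3 (0.341 log2 units). Thsd4 averaged 0 CPM in DN3, 101 in ZsGreen-positive and 201 in ZsGreen-negative ILC2, and Jag1, a Notch ligand gene, 0.169 CPM in DN3, 189 in ZsGreen-positive and 467 in ZsGreen-negative ILC2. For Ctla4 they were Pdk3 (0.152), Rmi1 (0.153), Tmem50b (0.161), Xbp1 (0.162) and Socs3 (0.165). For Cd28 they were Zfp629 (0.190), Dgke (0.196), Slc14a1 (0.199), Ccdc85c (0.210) and Slc16a1 (0.211), with Zfp629 at 50.5 CPM in DN3 against 4.93 in ZsGreen-positive and 6.20 in ZsGreen-negative ILC2. The difference between tissues dominates this measure.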

How the data were processed

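Per the labels' protocols, a PicoPure kit served for RNA isolation and a Watchmaker Genomics mRNA kit for the libraries. The analysis started from raw counts per gene as the authors deposited them, in a table of 11 libraries; a second deposited table held identical counts for the 8 lung libraries. The submitters' processing notes name GRCm39 and DESeq2. The aligner, counter, annotation and strand setting were not given in the sources used here. Lengths, coding stretches (GENCODE M21) and promoters (RefSeq, GRCm38.p6) come from build GRCm38, another build than the counts.

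Members, lists and tests were chosen with earlier results of these data known. Counts were tested with edgeR 4.0.16 (R 4.3.3; quasi-likelihood, robust, TMM, filterByExpr with a minimum count of 10). BH adjustment ran over all genes tested, and 0.05 was the threshold. Batch and group were the terms for the 8 lung libraries. The DN3 comparisons used all 11 libraries with group only, since DN3 are a batch of their own. CPM were computed here over all 11 libraries, so a lung level carries the scaling of the 11. Alternatives were RLE and upper-quartile scaling, no filter, DESeq2 1.42.0, limma 3.58.1 (voom), no batch term, 2024 lung libraries only, all libraries in a single fit, marker scores as terms, a replicate block and each library left out. The scripts were tested on simulated data. Whether replicates are separate animals is not in the labels; p-values therefore reflect library spread only, which may be technical. Over 16 replicate pairs, chi-square per degree of freedom was 1.77 to 15.3, above sampling noise in each. All 10 members are named. Of each other list the rule takes the called genes in order of p, at most 4 per direction and comparison; not all of these are described, and the choice among them, Tnfrsf14 and the marker genes was made after their values were seen. A gene that the rule takes is not reported here. Likeness left out unnamed, ribosomal, mitochondrial, sex-linked and pseudogene entries.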

Additional observations from a re-analysis of the deposited data

Results flagged for a closer look

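Ctla4 in ZsGreen-negative ILC2 held a library far from the others. Library 5, from April 2025, measured 20.7 CPM, against 31.3 to 32.9 CPM in the 4 libraries of September 2024, and the gap to its nearest neighbour made up 0.871 of the group's range. Chance flags about 1 group in 20, and 12 sets of values were examined. The batch holds 1 library of this group, so library and batch cannot be told apart. Without that library the difference between ZsGreen-positive and ZsGreen-negative ILC2 was 0.31 log2 units (edgeR BH-adjusted p = 0.285), and that between DN3 and ZsGreen-negative ILC2 was 0.53 (edgeR BH-adjusted p = 6.97e-05).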

How the results depend on the processing

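Between the lung groups, 19 alternatives were run. Icos stayed called in all 19, at -1.02 to -0.90 log2 units with edgeR, DESeq2 or limma voom adjusted p of 3.3e-22 to 0.00764. The number of members called higher, 1 (Ctla4), became 0 with no batch term, in the 2024 libraries alone, with all 11 libraries in the fit, and with the structural or the macrophage and dendritic score as a term, and was 0 to 1 with single libraries left out. Over all genes, 323 were called higher and 300 lower. These counts were 621 and 460 without the filter, 145 and 153 in 2024 alone and 19 and 37 with the structural score; 189 were called higher with the macrophage and dendritic score. Leaving out single libraries gave 146 to 471 higher and 140 to 343 lower. ZsGreen-negative library 5 set both lower ends, and the counts were 149 and 172 when ZsGreen-positive library 2 was out and 148 and 154 when library 3 was. Btla, which had no call, ranged from -0.12 to 0.0078 log2 units with single libraries left out and changed sign without ZsGreen-positive library 1. In DN3 against ZsGreen-positive ILC2, members called higher were 1, and 2 with RLE, upper-quartile scaling, limma voom or the 2024 lung libraries only, and 1 to 2 with single libraries left out. The other 7 tested members against ZsGreen-positive ILC2, and all 8 against ZsGreen-negative ILC2, kept their direction and call in 18 of 18 alternatives. Members called lower in DN3, 6 in both comparisons, were 7 where Cd86 entered the test and was called: against both lung groups with no filter, without ZsGreen-positive library 1 or without DN3 library 1, and against ZsGreen-positive ILC2 also without DN3 library 2 or 3. Upper-quartile scaling shifted the median of all genes by 0.105 log2 units in DN3 against ZsGreen-negative ILC2. The cause of these changes was not tested.

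Replicate numbers did not pair the libraries: same-numbered deviations correlated at 0.069, -0.14 and -0.046 between the lung groups, and between -0.025 and 0.056 against DN3. With the replicate block, 130 genes were called higher and 103 lower between the lung groups, members called higher were 0 there and 2 in DN3 against ZsGreen-positive ILC2, and Zfp36, Nfatc2, Havcr2, Cd2 and Pld1 lost their calls. Cd80 and Cd86 had at most 34 counts a library.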
